A study of Mus musculus with 8 samples.

Results

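The tissue inhibitors of metalloproteinases (TIMPs) were followed by RNA sequencing in primary fibroblasts from the lung of wild-type (WT) mice. All 4 genes of the family, Timp1, Timp2, Timp3 and Timp4, were taken by their symbols, each on 1 row, out of 52110 rows with a gene symbol. Cells had received no cytokine or recombinant TWEAK, a ligand of the TNF superfamily that signals through the receptor Tnfrsf12a, at 10, 30 or 100 ng/ml, and RNA was taken after 48 hours in all groups. There were 2 libraries for each of the 4 groups (8 together), all from cells kept in DMEM with serum and antibiotics. The sources used here give no age, sex or number of animals behind a library. Nothing in the labels says that 2 libraries of a group were separate cultures, so a p-value reflects only how far such libraries lie apart, and that spread may be technical.

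TIMPs are small secreted proteins that bind the catalytic site of active metalloproteinases one to one and block them. Their targets are the matrix metalloproteinases (MMPs), which cut collagen and other matrix proteins, and, for TIMP3 above all, the ADAM sheddases and ADAMTS aggrecanases. TIMP1 is the member most often induced in inflamed and fibrotic tissue, TIMP2 is mostly constitutive and also serves in the activation of pro-MMP2 by MMP14, TIMP3 is held in the extracellular matrix, and TIMP4 has a narrow tissue range with high levels in heart, brain and fat. In fibroblasts the balance between these inhibitors and the proteases sets how fast matrix is turned over.

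Total counts ran from 37345575 to 50896445 per library. No pair of same-group libraries agreed within counting noise (chi-square over its degrees of freedom from 24.5 to 29.8). Each was entered as its own sample, though a spread beyond counting noise does not show separate cultures. The libraries labelled 100 ng/ml differed least from untreated ones: edgeR called 1.12% of 17360 tested genes there (194), against 29.2% (5075) at 10 ng/ml and 23.3% (4041) at 30 ng/ml. The count of 194 dropped to between 91 and 125 when an untreated or a 100 ng/ml library was left out, whichever it was, and that at 30 ng/ml to 2540, 2661 and 2622 without untreated replicate 1, untreated replicate 2 and TWEAK30 replicate 1. Doses are therefore given as labelled, and no order of dose is assumed. The fibroblast label was checked on 10 markers, all of which were detected, from Lum, at 3.3 to 16.6 CPM (counts scaled to library size), to Fn1. All 6 epithelial markers were below 10 counts in every library, with Epcam at 0. Of 7 leukocyte markers Cd3e was at 0 throughout, Ptprc, Adgre1 and Cd79a reached at most 26, 21 and 13 counts, and the other three were detected in every library, with 399 to 791 counts of Lyz2, 101 to 398 of Cd68 and 37 to 128 of Csf1r. All levels below are CPM scaled by TMM, which corrects for differences in composition between libraries. A gene was called at an adjusted p below 0.05 (edgeR's quasi-likelihood test, Benjamini-Hochberg over all tested genes), and errors of log2 changes are standard errors (SE).

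On mm10, Timp1 lies on chromosome X (20870166 to 20874735, plus strand), Timp2 on chromosome 11 (118301069 to 118355740, minus strand), Timp3 on chromosome 10 (86300372 to 86349506, plus strand) and Timp4 on chromosome 6 (115241892 to 115252205, minus strand). In the annotation (GENCODE M21), 3 of the 4 sit inside a synapsin gene on the opposite strand: Timp1 within Syn1, Timp3 within Syn3 and Timp4 within Syn2. Synapsins coat synaptic vesicles and are known from neurons. No exon of Timp1 overlaps an exon of Syn1. Timp3 shares 1733 bases of exon with Syn3, 21.3% of the exon bases of Timp3, and Timp4 shares 90 bases with Syn2, 1.5% of its own. The sources used here do not say whether counting used strand, so reads from shared stretches could have been credited to either partner or to neither. Timp2 lies in no synapsin gene and holds the gene Cep295nl within its span, with no shared exon bases.

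**Figure D1:**
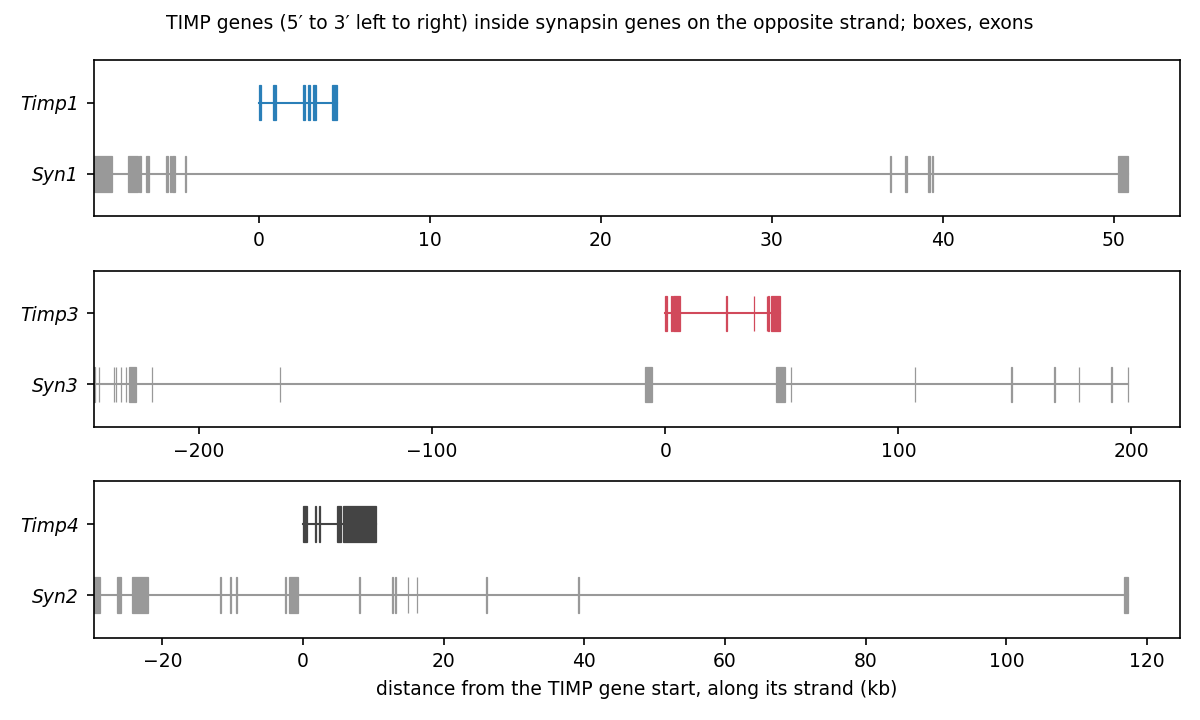
Exons (boxes) of Timp1, Timp3 and Timp4 and of the synapsin gene around each, by distance in kb from the start of the TIMP gene along its own strand. Timp1 sits between exons of Syn1, while exons of Timp3 and Syn3 share 1733 bases and those of Timp4 and Syn2 share 90.

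The promoters of Timp1 and Timp3, the members that moved in opposite directions, are shown so that their sequences can be compared. They are RefSeq sequence of GRCm38.p6, plus strand, 5′ to 3′, and end just before the annotated gene start; capitals mark a GC box (GGGCGG on either strand, the element bound by Sp1-type factors).
Timp1, chrX:20869916-20870165: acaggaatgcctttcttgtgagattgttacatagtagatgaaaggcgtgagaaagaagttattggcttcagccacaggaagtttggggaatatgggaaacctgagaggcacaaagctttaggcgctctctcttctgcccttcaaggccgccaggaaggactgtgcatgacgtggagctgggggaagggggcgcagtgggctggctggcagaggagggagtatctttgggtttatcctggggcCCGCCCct
Timp3, chr10:86300162-86300371: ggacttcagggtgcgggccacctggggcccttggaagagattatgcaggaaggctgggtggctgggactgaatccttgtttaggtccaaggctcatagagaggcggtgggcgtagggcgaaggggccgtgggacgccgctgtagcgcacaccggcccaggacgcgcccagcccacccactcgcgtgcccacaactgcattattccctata
The 250 bases before Timp1 hold 6 CG dinucleotides and 54.4% G and C. The 210 bases before Timp3 hold 13 CG dinucleotides and 63.8% G and C. The median over 32851 promoters was 6 CG dinucleotides in windows of 250 bases and 4 in windows of 210. The single GC box lies in the Timp1 window, and 32.7% of all promoters hold one in 250 bases and 26.7% in 210. No AP-1 motif (TGANTCA, both strands) and no NF-kB motif was found in either window. In windows of 250 bases these were found in 6.75% and 3.9% of promoters, and in windows of 210 bases in 5.84% and 3.29%.

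Timp3 fell at every dose, and by group mean the fall was deepest at 10 ng/ml. The difference between 10 and 30 ng/ml was not called (edgeR adjusted p = 0.213). The level of Timp3 was 1609 and 1558 CPM in the 2 untreated libraries and 210 and 191 CPM at 10 ng/ml. At 30 ng/ml it was 265 and 309 CPM, and in the libraries labelled 100 ng/ml it was 967 and 986 CPM. The 4 groups did not overlap: untreated libraries were highest, then 100, 30 and 10 ng/ml. Groups of 2 libraries often separate without a difference, and the share of all tested genes that did so is not given here. Against untreated cells Timp3 fell by 2.98 ± 0.09 on the log2 scale at 10 ng/ml (edgeR adjusted p = 1.8e-06), to 0.127 times the untreated level with a 95% interval from 0.11 to 0.145. Only 7 of the 17360 tested genes had a smaller p in that comparison, and 213 had a more negative log2 change.

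At 30 ng/ml Timp3 fell by 2.46 ± 0.08 on the log2 scale (edgeR adjusted p = 3.64e-06), to 0.181 times the untreated level. At 100 ng/ml it fell by 0.70 ± 0.08 (edgeR adjusted p = 0.0077), to 0.617 times the untreated level with an interval from 0.542 to 0.701. Leaving out untreated replicate 1 (edgeR adjusted p = 0.0612) or TWEAK100 replicate 1 (0.0581) ended the call at 100 ng/ml, with a log2 change of -0.68 in both fits. The table credits Syn3 with between 0 and 44 counts in a library and Timp3 with at least 7858; how reads of the shared exon were assigned was not tested.

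Timp1 rose at every dose, with the group means in the reverse order. Its difference between 10 and 30 ng/ml was not called (edgeR adjusted p = 0.51). Timp1 stood at 327 and 328 CPM in untreated cells and at 628 and 617 CPM at 10 ng/ml. At 30 ng/ml it was 547 and 543 CPM, and at 100 ng/ml 415 and 441 CPM. By group mean 10 ng/ml was highest and untreated lowest. The log2 change against untreated was 0.93 ± 0.05 at 10 ng/ml (edgeR adjusted p = 1.39e-05), a ratio of 1.9 with an interval from 1.75 to 2.07. It was 0.74 ± 0.05 at 30 ng/ml (edgeR adjusted p = 5.72e-05), a ratio of 1.67.

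At 100 ng/ml Timp1 rose by 0.39 ± 0.05 on the log2 scale (edgeR adjusted p = 0.0153), a ratio of 1.31 with an interval from 1.2 to 1.42. Leaving out untreated replicate 1 (edgeR adjusted p = 0.126), untreated replicate 2 (0.112) or TWEAK100 replicate 2 (0.0758) ended that call, as did fitting only these 2 groups (0.0615). Its log2 change stayed between 0.34 and 0.43 when any 1 library was left out.

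Timp2 passed no test. Its level was 2044 and 1959 CPM in untreated cells, 2027 and 1921 CPM at 10 ng/ml, 1923 and 1850 CPM at 30 ng/ml, and 1880 and 1893 CPM at 100 ng/ml. Untreated and 10 ng/ml libraries overlapped, while both libraries at 30 and at 100 ng/ml lay below both untreated ones. With 2 libraries in a group such a separation does not show a fall. The log2 change was -0.02 ± 0.05 at 10 ng/ml (95% interval -0.13 to 0.09, edgeR adjusted p = 0.79). It was -0.09 ± 0.05 at 30 ng/ml (interval -0.19 to 0.02, edgeR adjusted p = 0.232), and the same value at 100 ng/ml had an edgeR adjusted p of 0.533. These intervals leave room for a fall to about 0.876 times the untreated level at 30 or 100 ng/ml and to 0.917 times at 10 ng/ml.

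Timp4 was near the limit of detection. It had 25 and 30 counts in untreated cells, 11 and 0 at 10 ng/ml, 5 and 0 at 30 ng/ml, and 14 and 11 at 100 ng/ml. In CPM these were 0.5 and 0.602, 0.294 and 0, 0.11 and 0, and 0.352 and 0.275. Before TMM scaling 3 counts, the limit that a count of 0 allows, are worth between 0.059 and 0.0805 CPM. All treated libraries lay below both untreated ones, which so few libraries and counts can show without a difference, and no dose passed the test. The log2 changes of -1.92 ± 1.33, -3.23 ± 1.46 and -0.81 ± 1.25 at 10, 30 and 100 ng/ml had edgeR adjusted p of 0.33, 0.164 and 0.878. A change of Timp4 was not detected, and the 95% intervals were wide, from -6.62 to 0.16 at 30 ng/ml.

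**Figure D2:**
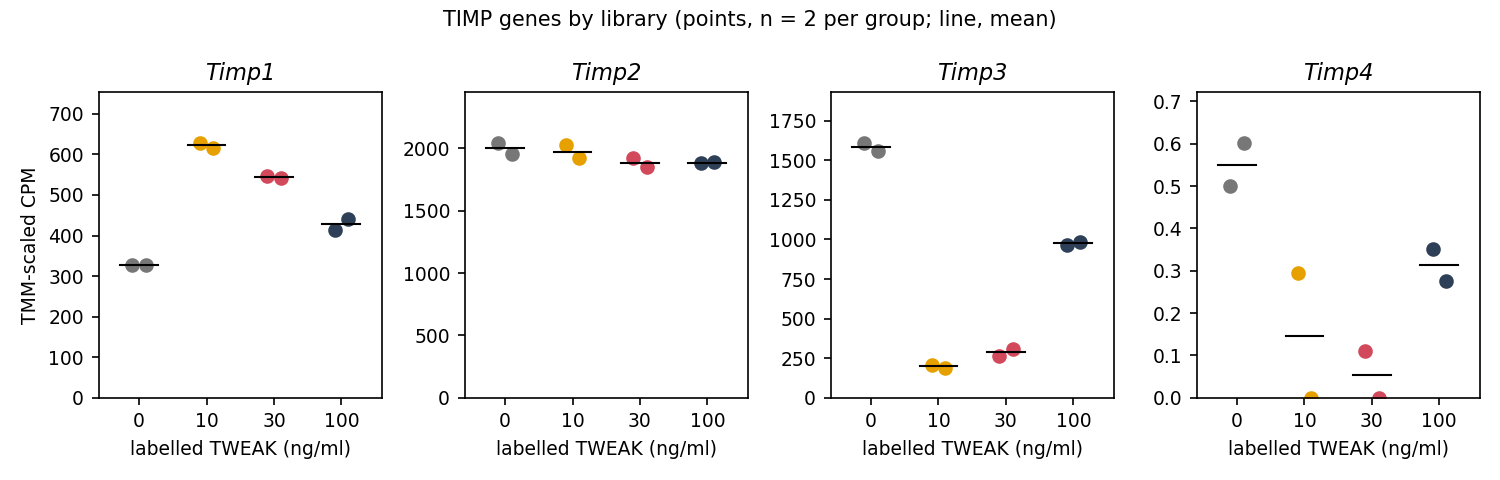
TMM-scaled CPM of each TIMP gene (vertical axis, own scale from 0 in each panel) against the labelled TWEAK concentration, with a point per library and a line at the mean of 2. Across groups, untreated libraries have the lowest Timp1 and the highest Timp3, Timp2 lies between 1850 and 2044 CPM throughout, and Timp4 stays below 0.61 CPM.

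Of the 4 TIMP genes, which all passed the filter on low counts, 1 rose and 1 fell at each dose. The share of all tested genes that rose was 15% at 10 ng/ml, 12.6% at 30 ng/ml and 0.812% at 100 ng/ml, and the share that fell was 14.2%, 10.7% and 0.305%. The 3 comparisons share the untreated libraries, so their directions are not independent of each other.

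**Figure D3:**
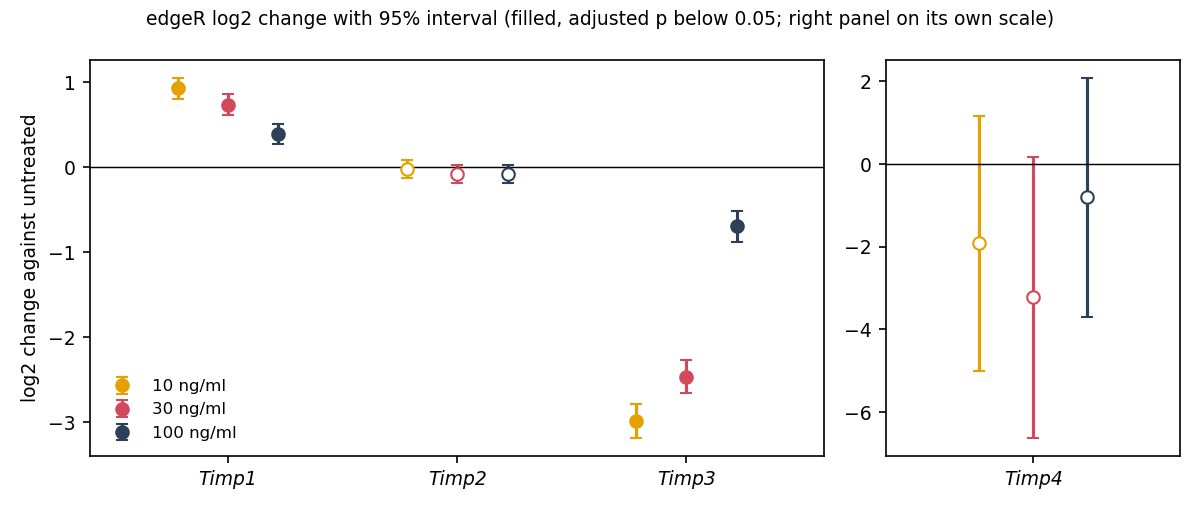
edgeR log2 change against untreated cells, with 95% interval, for each TIMP gene at each labelled dose; filled points passed an adjusted p below 0.05, and Timp4 has its own scale. Timp1 lies above 0 and Timp3 below 0 at all 3 doses, Timp2 intervals hold 0, and those of Timp4 span several log2 units.

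The doses were also compared with each other. Between 10 and 100 ng/ml, Timp3 was higher at 100 ng/ml by 2.29 ± 0.08 on the log2 scale (edgeR adjusted p = 1.87e-05), a ratio of 4.88, and Timp1 was lower by 0.54 ± 0.05 (log2 change -0.54, edgeR adjusted p = 0.000287). In this comparison 10.7% of tested genes were called higher and 11.2% lower. Only 4 of the tested genes had a smaller p than Timp3. Between 30 and 100 ng/ml, Timp3 was higher at 100 ng/ml by 1.77 ± 0.08 (edgeR adjusted p = 8.28e-05) and the log2 change of Timp1 was -0.35 ± 0.05 (edgeR adjusted p = 0.00349), where 7.15% of tested genes were called higher and 8.04% lower. The 2637 genes called there became 1380, 1567 and 1631 without TWEAK30 replicate 1, TWEAK100 replicate 1 and TWEAK100 replicate 2, and the 3816 called between 10 and 100 ng/ml became 2524 and 2406 without TWEAK10 replicate 1 and TWEAK100 replicate 1.

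Between 10 and 30 ng/ml no TIMP gene was called, and neither was any of the 17360 genes (0%). In that comparison 1208 genes had an unadjusted p below 0.05, and DESeq2 called 132 genes and limma-voom 0. Timp3 was higher at 30 ng/ml by 0.52 ± 0.08 on the log2 scale (edgeR unadjusted p = 0.000221, edgeR adjusted p = 0.213). DESeq2 called it (adjusted p = 1.21e-05), and so did edgeR without TWEAK30 replicate 1 (0.0271). The log2 change of Timp1 was -0.19 ± 0.05 (edgeR adjusted p = 0.51). Log2 changes of Timp2 between doses were at most 0.07 in size, with adjusted p between 0.362 and 0.999, and those of Timp4 had adjusted p between 0.347 and 0.921.

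Levels of the 4 genes can be set side by side once divided by their length, 888 bases of exon for Timp1, 3896 for Timp2, 8144 for Timp3 and 5894 for Timp4. In CPM per kb of exon, untreated cells had 514 ± 15.5 of Timp2, 369 ± 0.707 of Timp1, 194 ± 4.46 of Timp3 and 0.0934 ± 0.0123 of Timp4 (SD, n = 2). Timp2 and Timp1 were among the most abundant transcripts per length: 62 and 66 of the 16812 tested genes with an annotated length stood above Timp2 in the 2 untreated libraries, and 94 and 101 above Timp1. Timp3 had 192 and 205 genes above it. At 10 ng/ml, 2028 and 2198 genes stood above Timp3 and 50 in both libraries above Timp1.

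The order of the family thus changed at 10 and 30 ng/ml, where Timp1 came before Timp2 in every library. At 10 ng/ml the per-length level of Timp1 was 701 ± 9.19 CPM per kb, that of Timp2 507 ± 19.4 and that of Timp3 24.6 ± 1.66 (SD, n = 2). At 30 ng/ml these were 614 ± 3.54, 484 ± 13.2 and 35.3 ± 3.84. At 100 ng/ml Timp1 (482 ± 20.6) and Timp2 (484 ± 2.33) lay within the spread of the libraries, and Timp3 stood at 120 ± 1.63.

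The per-length ratio of Timp1 to Timp3 was 1.86 and 1.93 in the untreated libraries. It was 27.4 and 29.6 at 10 ng/ml, 18.9 and 16.1 at 30 ng/ml, and 3.93 and 4.1 at 100 ng/ml. Of the summed per-length level of the family, Timp3 made up 18.1% ± 0.0919 in untreated cells (SD, n = 2), 2% ± 0.0856 at 10 ng/ml, 3.11% ± 0.374 at 30 ng/ml and 11.1% ± 0.099 at 100 ng/ml. Timp1 made up 34.2% ± 0.679, 56.9% ± 0.651, 54.2% ± 0.304 and 44.3% ± 0.898. The summed level itself was 1091 and 1063 CPM per kb in untreated cells, 1254 and 1211 at 10 ng/ml, 1142 and 1124 at 30 ng/ml, and 1068 and 1103 at 100 ng/ml. With this length it was higher at 10 and 30 ng/ml than in either untreated library, and at 100 ng/ml the groups overlapped. At 30 and 100 ng/ml the direction of the mean sum turned with the length used, an alternative chosen after seeing the data. At 10 ng/ml the mean sum was above that of untreated cells with either length. With the longest transcript in place of all exons it was 1262 and 1230 CPM per kb in untreated cells, 1303 and 1257 at 10 ng/ml, which overlapped with them, and 1194 and 1179 at 30 ng/ml and 1181 and 1218 at 100 ng/ml, all below both. The ratio of Timp1 to Timp3 was then 1.09 and 1.13 in untreated cells and 16 and 17.3 at 10 ng/ml, and the share of Timp3 in untreated cells was 26.9% and that of Timp1 29.8%. Shares, ratios and sums are given as values, with no test.

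**Figure D4:**
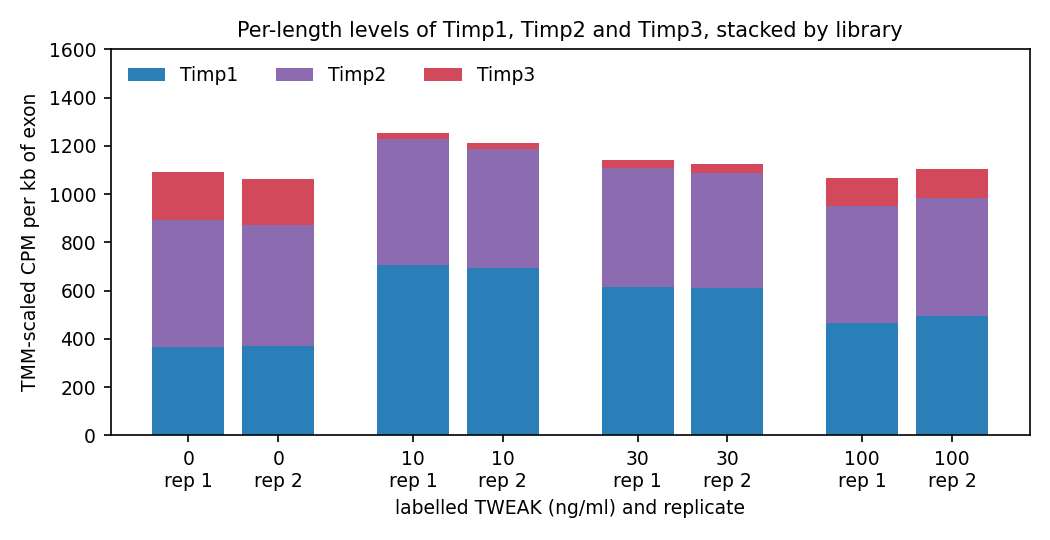
Stacked TMM-scaled CPM per kb of exon of Timp1, Timp2 and Timp3 in each library; Timp4 is too low to be seen. With all exons as length the total lies between 1063 and 1254 CPM per kb, while the Timp3 part shrinks from 18.1% to 2% at 10 ng/ml and the Timp1 part grows from 34.2% to 56.9%.

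Over the 8 libraries, log2 CPM of Timp1 and Timp3 had a Pearson correlation of -0.98, while Timp2 gave -0.24 with Timp1 and 0.16 with Timp3. These are descriptions over 4 groups of 2 and carry no test. Among 10544 genes whose mean reached 5 CPM, those most like Timp3 were Ism1 (r = 0.9998), a secreted angiogenesis inhibitor, Prelp (0.999), a matrix proteoglycan, and Slit3 (0.9989), a secreted guidance protein. Ism1 went from 225 ± 4.78 CPM in untreated cells to 33.5 ± 2.18 at 10 ng/ml, 46.4 ± 4.04 at 30 ng/ml and 143 ± 4.38 at 100 ng/ml (SD, n = 2). In all, 194 genes had r above 0.99 with Timp3, and the gene with the lowest r was Slc20a1 (-0.9988), a phosphate transporter.

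Genes most like Timp1 were Lgals3 (r = 0.9959), which encodes galectin-3, Glul (0.9957), glutamine synthetase, and Rab11a (0.9955), a GTPase of recycling endosomes, and 20 genes had r above 0.99. For Timp2, whose libraries differed little, the leading genes were Pomt2 (0.9539) and Ywhah (0.947), no gene exceeded 0.99, and Txlng had the lowest r (-0.9579). For Timp4 likeness is not given, since it had at most 30 counts in a library.

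The synapsin genes around the TIMP genes moved as follows. Syn2, around Timp4, had 21.8 and 17.6 CPM in untreated cells, 2.3 and 1.15 at 10 ng/ml, 2.23 and 1.61 at 30 ng/ml, and 13 and 11.1 at 100 ng/ml. It fell by 3.52 ± 0.32 on the log2 scale at 10 ng/ml (edgeR adjusted p = 0.000133), and the log2 change at 30 ng/ml was -3.36 ± 0.32 (edgeR adjusted p = 0.000218). Its change of -0.70 ± 0.28 at 100 ng/ml did not pass (edgeR adjusted p = 0.383). Syn3, around Timp3, had between 0 and 44 counts in a library and was not called, with a log2 change of -2.72 ± 1.09 at 10 ng/ml (edgeR adjusted p = 0.104). Syn1, around Timp1, lay between 3.66 and 6.59 CPM, with a log2 change of -0.16 ± 0.22 at 10 ng/ml (edgeR adjusted p = 0.655).

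Among metalloproteinase genes of the MMP, ADAM and ADAMTS families, some rose and others fell. Of 32 genes on this list, called targets here, 29 passed the filter on low counts. Whether a TIMP blocks the product of each was not tested. At 10 ng/ml 6 of them rose and 10 fell, at 30 ng/ml 4 rose and 9 fell, and at 100 ng/ml 2 rose and none fell. Of all tested genes 15% rose and 14.2% fell at 10 ng/ml, 12.6% and 10.7% at 30 ng/ml, and 0.812% and 0.305% at 100 ng/ml. The list's median log2 change was -0.14, -0.11 and -0.03 at the 3 doses, against medians of 0.01, 0.01 and 0.00 over all tested genes.

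Among the TIMP targets with the smallest p at 10 ng/ml, the gelatinase gene Mmp9 and the stromelysin gene Mmp10 rose. Mmp9, whose latent protein binds TIMP1, had 9 and 7 counts in untreated cells and 12613 and 16261 at 10 ng/ml. Its per-length level at 10 ng/ml was 101 ± 8.65 CPM per kb, against 701 ± 9.19 for Timp1 in the same libraries (SD, n = 2). The target gene Mmp3 lay above Timp1 there, at 1226 ± 32.4 CPM per kb. Mmp3 was not called at 10 ng/ml (edgeR adjusted p = 0.97). Mmp10 rose by 3.15 ± 0.10 on the log2 scale (edgeR adjusted p = 2.02e-06), and Mmp9 and Mmp10 were still called at 100 ng/ml.

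Among the targets that fell at 10 ng/ml were Mmp2, the gelatinase whose activation runs through TIMP2 and MMP14, and most ADAMTS genes named by the rule. Mmp2 fell by 1.09 ± 0.09 on the log2 scale (edgeR adjusted p = 6.87e-05), from 693 and 681 CPM to 328 and 317 CPM. Mmp14, the membrane-bound partner of TIMP2 in that activation, rose by 0.16 ± 0.05 (edgeR adjusted p = 0.0428), while Timp2 was not called. The aggrecanase Adamts5, which TIMP3 inhibits, fell by 1.48 ± 0.08 (edgeR adjusted p = 1.01e-05), and Adamts4, the other main aggrecanase, rose by 0.33 ± 0.08 (edgeR adjusted p = 0.0196). The procollagen protease Adamts2 fell by 1.71 ± 0.09, Adamts1 by 1.40 ± 0.10 and the ADAM gene Adam12 by 1.73 ± 0.10 on the log2 scale.

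The sheddase genes Adam17 and Adam10 were not called at 10 ng/ml. Adam17, which releases TNF and is blocked by TIMP3, had a log2 change of 0.53 ± 0.19 (edgeR adjusted p = 0.0752), with 136 and 144 CPM in untreated cells and 199 and 206 CPM at 10 ng/ml. Adam10 had a log2 change of -0.25 ± 0.25 (edgeR adjusted p = 0.502), and its libraries differed within groups, from 123 to 200 CPM at 10 ng/ml. In the same libraries Timp3 fell to 0.127 times its untreated level.

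Genes for proteins that bind, take up or anchor TIMPs were also followed. Of 12 such genes, all of which passed the filter, 6 rose and 4 fell at 10 ng/ml, 4 rose and 4 fell at 30 ng/ml, and 1 fell and none rose at 100 ng/ml, with median log2 changes of 0.01, 0.00 and -0.06. Over all tested genes 29.2%, 23.3% and 1.12% were called in either direction at these doses. Mmp14, called higher at 10 ng/ml, is also on the list of targets and is counted in both. Cd63, a tetraspanin that binds TIMP1, rose by 0.47 ± 0.06 on the log2 scale at 10 ng/ml (edgeR adjusted p = 0.000605). Efemp1, a fibulin that binds TIMP3 in the matrix, fell by 1.71 ± 0.11 (edgeR adjusted p = 2.21e-05), from 368 and 384 CPM to 118 and 112 CPM. Lrp1, the endocytic receptor that clears TIMP3, fell by 0.63 ± 0.10 (edgeR adjusted p = 0.00243).

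Of the other partners with the smallest p at 10 ng/ml, Agtr2, the angiotensin II type 2 receptor, fell by 4.66 ± 0.27 on the log2 scale and was the partner gene called at 100 ng/ml. Cd44, a hyaluronan receptor, rose by 2.45 ± 0.20, and Cd74, the invariant chain, rose from 0 and 6 counts in the untreated libraries to 81 in each library at 10 ng/ml.

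Other inhibitors of matrix proteases, and proteins that carry the netrin-like (NTR) fold of the TIMP N-terminal domain, were counted in the same way. Of 22 genes 20 passed the filter, and 4 rose and 8 fell at 10 ng/ml, 6 rose and 8 fell at 30 ng/ml, and 1 rose and none fell at 100 ng/ml. The shares of all tested genes were 15% and 14.2% at 10 ng/ml, 12.6% and 10.7% at 30 ng/ml, and 0.812% and 0.305% at 100 ng/ml. The list's median log2 changes were -0.07, -0.19 and -0.06. Reck, the membrane-anchored MMP inhibitor, stood at 61.6 and 60.1 CPM in untreated cells and 28.5 and 30.3 CPM at 10 ng/ml, and fell by 1.05 ± 0.08 on the log2 scale (edgeR adjusted p = 4.28e-05). Its change of -0.40 ± 0.08 at 100 ng/ml did not pass (edgeR adjusted p = 0.0657).

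Cstb, an intracellular cysteine protease inhibitor, rose by 0.87 ± 0.07 on the log2 scale at 10 ng/ml. Serping1, the inhibitor of the first complement component, fell by 1.12 ± 0.08. The NTR-domain genes C3, the central complement protein, and Pcolce2, an enhancer of procollagen processing, changed by 2.45 ± 0.09 and -1.20 ± 0.12 on the same scale. All of these passed the test at 10 ng/ml, with edgeR adjusted p between 2.88e-06 and 0.000201.

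**Figure D5:**
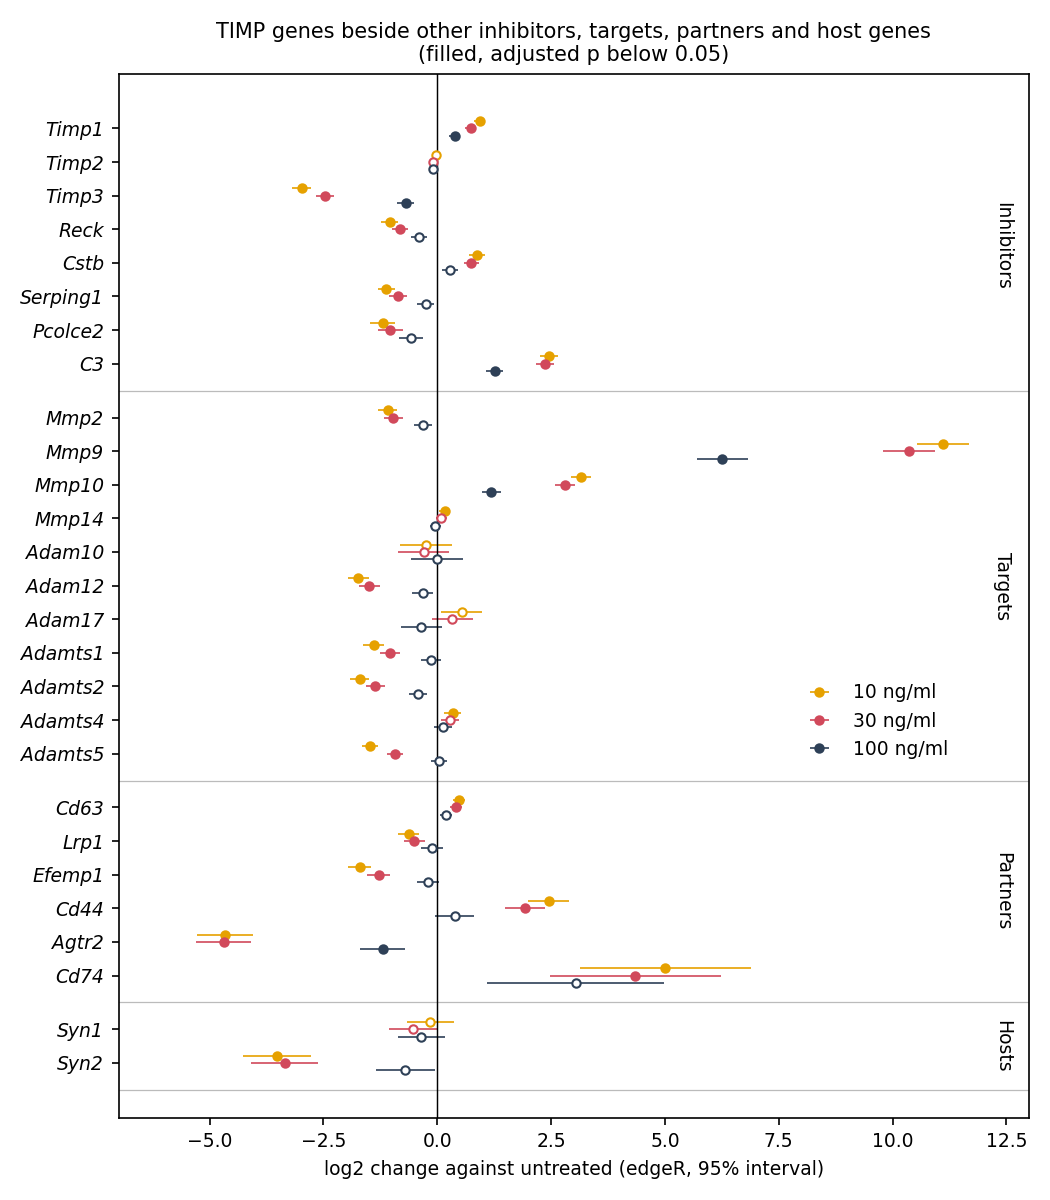
edgeR log2 change against untreated cells (horizontal axis, 95% interval) at each labelled dose for Timp1, Timp2, Timp3 and other genes. These are other inhibitors, targets, binding partners and host genes. C3 and Pcolce2 are drawn with the inhibitors but are listed for their NTR domain. Timp4 and Syn3, with few counts, are left out, and filled points passed an adjusted p below 0.05. Timp3 lies further below 0 at 10 ng/ml than Reck, and Mmp9 and Mmp10 are the targets called higher at 100 ng/ml.

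Marker levels moved in the same libraries. The summed level of the 10 fibroblast markers was 33630 and 32440 CPM in untreated cells, 17510 and 18040 at 10 ng/ml, 18680 and 21550 at 30 ng/ml, and 30490 and 31050 at 100 ng/ml, with 7 of the 10 lower and 3 higher at 10 ng/ml. The 7 leukocyte markers summed to between 11.5 and 15.3 CPM in untreated libraries and between 21.7 and 27.1 CPM in treated ones, with Cd68 as the only one called at 10 ng/ml. The 4 mesothelial markers summed to 12.6 and 13.2 CPM in untreated cells and to between 4.3 and 11.1 CPM in treated ones. The 4 smooth muscle markers summed to between 550 and 856 CPM, the 6 endothelial ones to between 5.83 and 7.69 CPM, the 6 epithelial ones to at most 0.321 CPM and the 6 neuronal ones, which include the synapsins, to between 60.3 and 100.4 CPM. The smooth muscle and endothelial sums hide called changes in both directions at 10 ng/ml. Des rose (log2 change 1.86), Myh11 (-1.05) and Cnn1 (-1.77) fell, and Acta2 was not called. Of the endothelial markers Cdh5 rose (4.72), Tek fell (-1.70) and no other was called. The part of such shifts in the levels of Timp1 and Timp3 was not tested. In bulk RNA fewer cells of a type and less RNA per cell cannot be told apart.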

How the data were processed

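The authors deposited 1 table of raw read counts per gene row for 8 libraries, without normalization. The submitters' processing notes name mm10, STAR and StringTie, without versions. The counting program, the annotation and the strand setting: not given in the sources used here. Of 55335 rows, 3225 without a symbol (0.168% to 0.178% of counts) were left out.

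Counts were tested with edgeR 4.0.16 in R 4.3.3: filterByExpr by group (17360 genes kept), TMM, 1 quasi-likelihood fit of all 8 libraries with a mean per group, 6 contrasts, Benjamini-Hochberg adjustment over all tested genes, threshold 0.05, two-sided. Standard errors derive from the F statistic and are approximate. Gene positions and lengths are from GENCODE M21 on mm10, and 16812 tested genes (96.8%) matched by symbol. The fit was tested on simulated data.

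The members and lists were chosen with earlier results of these data known. Named were the TIMP genes, fixed partners, the 6 genes of a list with the smallest p at 10 ng/ml, and for likeness the 3 highest and 1 lowest Pearson r of log2(CPM + 0.5). A few genes that this rule names are not reported here. Alternatives were DESeq2 1.42.0, limma-voom (limma 3.58.1), DESeq2 size factors, library totals, other filters, other sets of libraries, the replicate block, leaving out each library and, for levels per length, the longest transcript. Counting limits cover counting error only.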

Additional observations from a re-analysis of the deposited data

How the results depend on the processing

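Leaving out any 1 library kept the direction of Timp1 and Timp3 in all 6 comparisons. The groups compared did not overlap for either gene, so these fits could hardly show another direction. At 100 ng/ml Timp1 ranged from 0.34 to 0.43 on the log2 scale and Timp3 from -0.72 to -0.68, and both lost the call in some of these fits. Over 16 alternatives the adjusted p (edgeR, limma or DESeq2) ran from 7.25e-05 to 0.126 for Timp1 and from 6.32e-12 to 0.0612 for Timp3. With only the groups compared fitted, the log2 change of Timp1 was 0.385 and was not called (edgeR adjusted p = 0.0615). Timp3 at 30 against 10 ng/ml had log2 changes from 0.40 to 0.63 without 1 library. DESeq2 called it, with a log2 change of 0.521 (adjusted p = 1.21e-05), and adjusted p ran from 1.21e-05 to 0.582 over 17 alternatives. Timp2 lay close to 0 and changed sign. At 10 ng/ml it was 0.0084 with library totals and ranged from -0.068 to 0.016 without 1 library, and at 100 against 30 ng/ml it was -0.0096 with library totals and ranged from -0.028 to 0.028. Timp4 at 30 against 10 ng/ml ranged from -5.66 to 4.38 without 1 library. The cause was not tested.

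With the longest transcript as length, the share of Timp1 in untreated, 10, 30 and 100 ng/ml cells was 29.8%, 55.1%, 52% and 40.4%, and that of Timp3 26.9%, 3.31%, 5.13% and 17.2%. That of Timp2 was 43.3% in untreated cells and 42.4% at 100 ng/ml. With this length, chosen for the sum after seeing the data, the mean summed level differed from untreated by 34, -59.5 and -46.5 CPM per kb at 10, 30 and 100 ng/ml, against 155.5, 56 and 8.5 with all exons.

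The number of genes called at 100 ng/ml was 194, against 568 by DESeq2. Between 10 and 30 ng/ml it was 0, against 132 by DESeq2, 5 with only these groups, 3 without the 100 ng/ml libraries and 3 to 62 without 1 library, the 62 without TWEAK30 replicate 1.

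Replicate numbers gave no sign of pairing: deviations of same-numbered libraries correlated between -0.066 and 0.033. Such values cannot show that same-numbered libraries came from separate cultures or animals. With the number as a replicate block, Timp1 changed by 0.93, 0.74 and 0.39 and Timp3 by -2.98, -2.47 and -0.70 at the 3 doses, with no call of a TIMP gene changed, and 4661, 3578 and 136 genes were called. Timp4 had at most 30 counts in a library, and its intervals were the widest among the 4 TIMP genes in every comparison.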
